A study of Mus musculus with 6 samples.

Results

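The 40 genes described here fold and oxidise proteins in the endoplasmic reticulum (ER), move proteins into it or out of it for degradation, or carry the unfolded protein response. They were taken by name from a list of symbols and are 40 of the 16430 genes tested. All 40 were found in the files and passed the filter on low counts. Islets were taken on postnatal day 24 from male C57BL/6 mice and their polyadenylated RNA was sequenced, with 1 mouse per library and 100 to 200 hand-picked islets per mouse. There were 3 libraries of the genotype Dpy30 knockout and 3 of the genotype Control. Dpy30 is a core subunit of the complexes that methylate lysine 4 of histone H3. The labels do not say which Cre driver or floxed allele was used, which cells lost Dpy30, or what alleles the controls carried.

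Secreted proteins enter the ER through a channel, fold there with the help of chaperones, and gain their disulfide bonds from a relay of oxidases. Proteins that fail are drawn back out and degraded (ER-associated degradation, ERAD). When unfolded protein builds up, a trio of sensors in the ER membrane responds: Ire1 (gene Ern1) splices the Xbp1 mRNA, Atf6 is cut to release a transcription factor, and Perk (gene Eif2ak3) slows translation while favouring that of Atf4. Beta cells make so much proinsulin, which needs its disulfide bonds, that this system is a standing part of their physiology.

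The libraries held 22694892, 17131515 and 23976598 estimated reads in knockout replicates 1 to 3, and 25208847, 25354384 and 24575889 in control replicates 1 to 3. Dpy30 overlapped between groups in reads, at 31.9, 53.2 and 30.7 CPM (counts scaled to library size and between libraries) in knockout and 25.6, 30.2 and 31.8 CPM in control islets. Per length it did not overlap, at 118, 119 and 111 TPM in knockout and 45.6, 44.8 and 56.2 TPM in control islets, and edgeR with a length offset called it higher (log2 fold change 0.99, adjusted p = 0.0296; 0.40, adjusted p = 0.298 without the offset). Transcripts that skip 1 exon of 143 bases, picked with the transcript values in view, held 80.5 to 82.2% of Dpy30 reads in knockout and 0.438 to 5.24% in control libraries. Islet hormone and granule markers summed to 114451 to 163299 CPM in knockout and 247794 to 328306 CPM in control libraries. Exocrine acinar markers, from a cell type rich in ER, summed to 3536 to 20777 CPM in knockout and 1431 to 4917 CPM in control libraries, with 1 of 26 tested markers called higher and 1 lower. Endothelial markers summed to 842 to 1054 CPM against 610 to 750 CPM, without overlap. Mesenchymal ones summed to 597 to 1148 CPM against 380 to 670 CPM, and their sums overlapped, as did the acinar sums. Of 12 islet markers 4 were called lower and 0 higher. Of 10 endothelial markers 4 were called higher and 0 lower, and of 10 mesenchymal ones 1 higher and 0 lower. Of 9 tested ductal markers 2 were lower and 1 higher, and of 10 macrophage markers 1 was lower and 1 higher. The sums of ductal markers (607 to 934 against 649 to 1404 CPM), macrophage markers (87.5 to 104 against 81.9 to 134 CPM), plasma and B cell markers (11.7 to 20.2 against 10.9 to 22.1 CPM) and Schwann cell markers (25.2 to 42.4 against 17.4 to 33.5 CPM) overlapped between groups. The part of these cell types in the results below was not tested beyond the acinar covariate. None of these markers was at 0 in all libraries. In bulk islets, fewer cells of a type and less RNA per cell cannot be told apart. In knockout replicate 2 the predicted gene Gm42418 took 14.7% of reads, against 0.0990 to 0.236% in the other 5 libraries.

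Of the 40 genes, 3 were lower in knockout islets and 0 higher: Ern1, the stress sensor Ire1; Ero1lb, the disulfide oxidase of islets; and Derl3, a channel component of ERAD (adjusted p below 0.05 by the Benjamini-Hochberg method, from edgeR's quasi-likelihood test). That is 7.5% of the genes, where 5.84% of all tested genes were lower and 4.1% higher, so the share called was near the background. DESeq2 called 7 of the 40, where it called 16.0% of all tested genes. Limma-voom called 3, where it called 9.96% of all. In edgeR 12 of the 40 had an unadjusted p below 0.05, and the share of all tested genes was not computed. The log2 fold change of knockout over control was below 0 in 39 of the 40 genes (97.5%), against 49.5% of all tested genes. Its median was -0.44, against 0.01 over all tested genes. In CPM, all knockout libraries lay below all control libraries in 10 of the 40 genes, against 17.2% of tested genes. In 0 all lay above, against 17.6%. In TPM, Ero1lb lay wholly below too, while Ern1, Derl3, Dnajc3, Dnajb9, Canx, Pdia3, Sel1l, Edem1 and Ssr1 overlapped. The share of all tested genes apart in TPM was not computed. Overlap between groups is given below in CPM unless TPM is named. The genes come from the same 6 libraries and are not independent of each other. Scaled by library totals alone, the median of all tested genes was 0.14 and that of the 40 was -0.30, with 0 of the 40 called and Dnajc10, Syvn1, Derl1, Wfs1 and Ssr4 turning to above 0. Among the calls over all genes, 58.8% were lower with the scaling used here and 39.0% with library totals alone.

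With the replicate number as a block, which the labels share between groups, 6 of the 40 genes were lower and 0 higher, where 7.86% of all tested genes were lower and 6.93% higher. The added ones were Dnajc3 (log2 fold change -0.76, adjusted p = 0.0302), Dnajb9 (-0.66, adjusted p = 0.0374) and Herpud1 (-0.88, adjusted p = 0.0447). With the mean level of acinar markers as a covariate, Ern1 remained called (-1.13, adjusted p = 0.0364). Ero1lb (-0.95, adjusted p = 0.0546) and Derl3 (-1.24, adjusted p = 0.193) did not. That fit called 3.72% of all tested genes, against 9.95% without the covariate. The number called was 1, 2 and 1 without knockout replicates 1, 2 and 3, and 3, 2 and 0 without control replicates 1, 2 and 3. The authors' deposited table lists 8 of the 40 genes at an adjusted p below 0.05, all lower: Ern1, Ero1lb, Derl3, Dnajc3, Dnajb9, Herpud1, Sel1l and Pdia3.

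**Figure D1:**
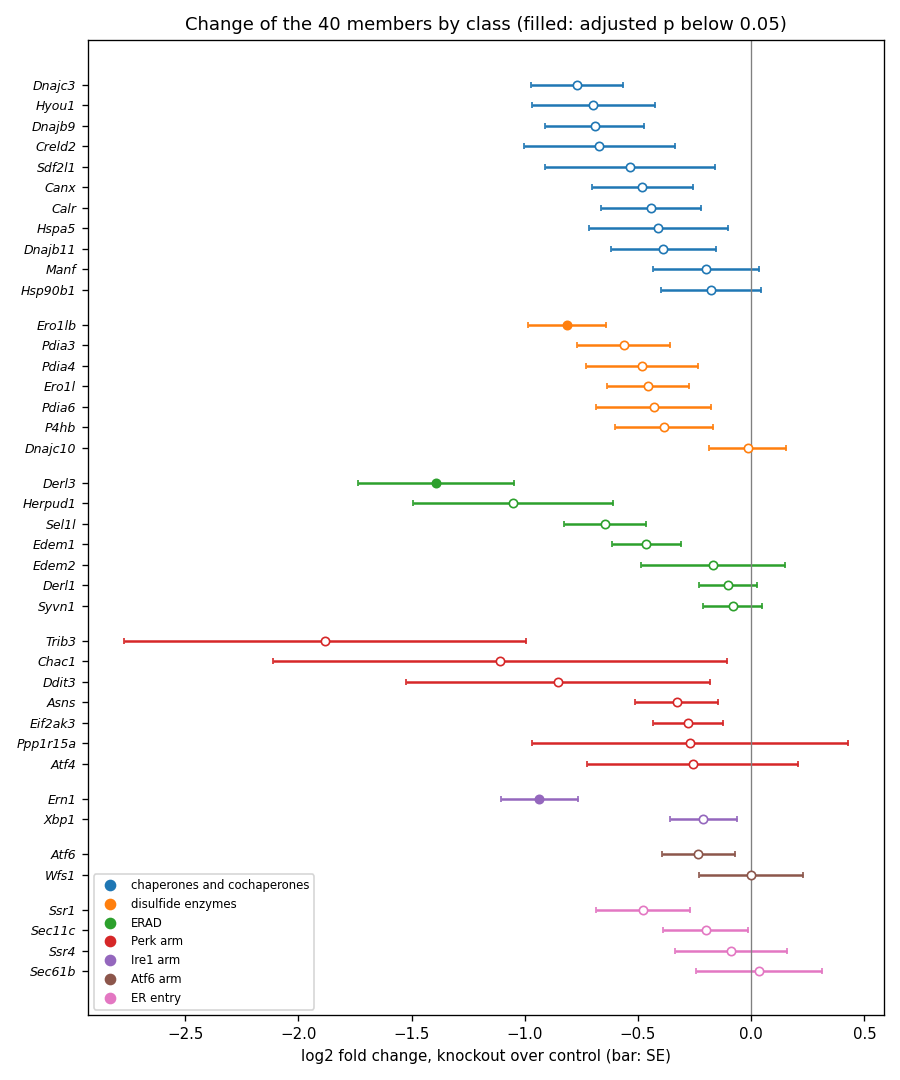
Log2 fold change of knockout over control (horizontal axis, bars are SE) for each of the 40 genes, grouped and coloured by class, with filled points for an adjusted p below 0.05. All genes except Sec61b lie below 0, and the filled ones are Ero1lb, Derl3 and Ern1.

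Of the 3 called genes, Ern1 of the Ire1 arm kept its call in the most fits. Ern1 encodes the kinase and nuclease that senses unfolded protein and splices Xbp1; its gene is at chr11:106394650-106487852 (GRCm38, minus strand). It read 78.5, 84.1 and 115 CPM in knockout islets, against 175, 178 and 177 CPM in control islets. In CPM the control libraries were nearly equal and the groups did not overlap. In TPM the groups overlapped, at 15.6, 10.7 and 22.2 in knockout and 24.9, 21.8 and 24.8 in control islets. The log2 fold change was -0.94 (SE 0.17, adjusted p = 0.0142, edgeR). With 1 library left out it stayed called in 5 of 6 fits, and it missed without control replicate 3 (-0.94, adjusted p = 0.0502). Xbp1, the transcription factor whose mRNA Ire1 splices, read 190.2, 191 and 161 CPM in knockout and 232, 190.2 and 206 CPM in control islets. Its groups overlapped, and the log2 fold change of -0.21 (SE 0.15) was not called (adjusted p = 0.393, edgeR). Xbp1 ran from 94.9 to 147 TPM in knockout and 88.7 to 131 TPM in control islets, where TPM corrects for transcript length. Splicing itself was not analysed here, because none of the 4 annotated Xbp1 transcripts lacks the intron of 26 bases that Ire1 removes.

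**Figure D2:**
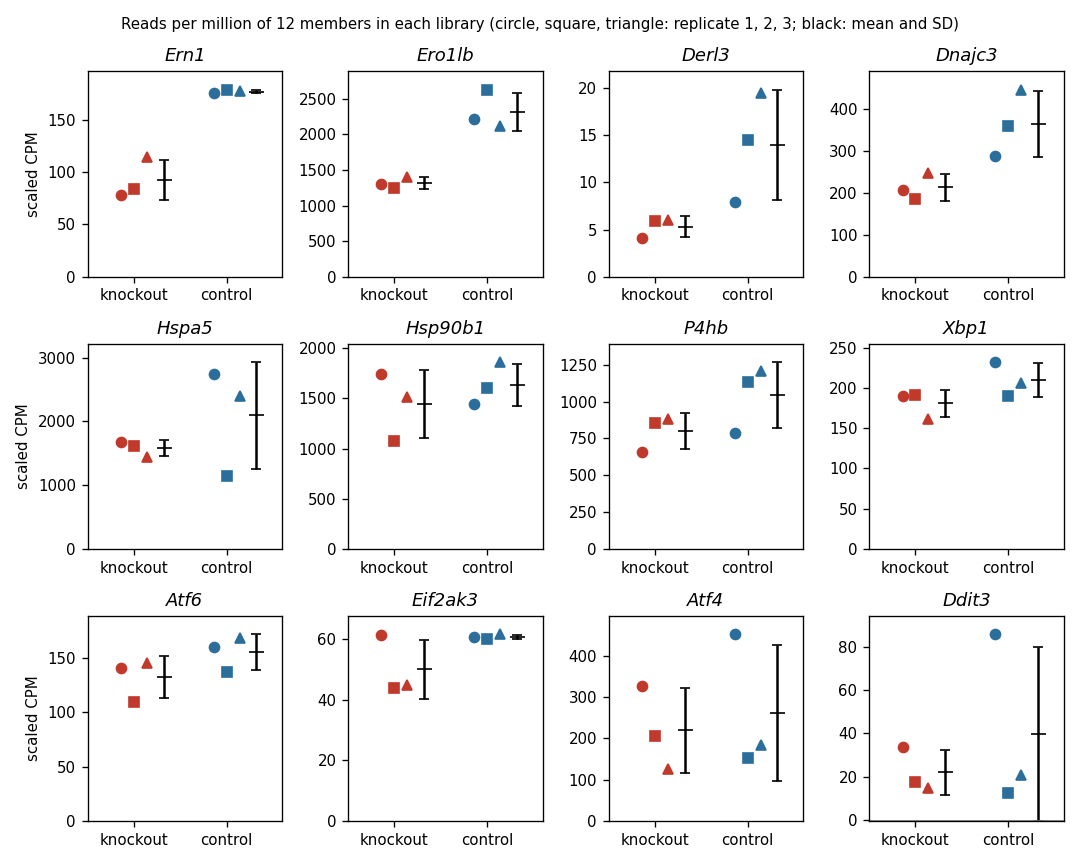
Scaled CPM (vertical axes, from 0 or below where an error bar reaches it) of 12 genes in the 3 knockout and the 3 control libraries, with circles, squares and triangles for replicates 1, 2 and 3 and black bars for mean and SD. Ern1, Ero1lb, Derl3 and Dnajc3 do not overlap between groups, while Atf4 and Ddit3 are highest in replicate 1 of both.

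The disulfide enzymes form the bonds that proinsulin needs, and 1 of 7 was lower. Ero1lb passes oxidising power to the protein disulfide isomerases and is the Ero1 form typical of the pancreas; its gene is at chr13:12565874-12611396 (plus strand). It read 1296, 1250.4 and 1405 CPM in knockout islets, against 2209, 2621 and 2123 CPM in control islets. The groups were well apart, with little spread inside either. The mean was 1317 ± 79.1 CPM in knockout and 2317 ± 266 CPM in control islets (SD, n = 3 each), a log2 fold change of -0.82 (SE 0.17, adjusted p = 0.0242, edgeR). The call was kept without knockout replicate 2 (adjusted p = 0.0357). It was lost without knockout replicates 1 and 3 (adjusted p = 0.0606 and 0.0581) and without control replicates 1, 2 and 3 (adjusted p = 0.065, 0.0891 and 0.0615), at log2 fold changes of -0.88 to -0.72 over the 6 fits.

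Ero1l, the broadly expressed Ero1 form, read 52.7, 43.2 and 64.1 CPM in knockout and 61.6, 76.8 and 81.0 CPM in control islets. Its groups overlapped and its log2 fold change of -0.45 was not called (adjusted p = 0.151, edgeR). Per length, Ero1lb was the more abundant form in both groups, at 429.8 TPM in knockout and 592 TPM in control islets, against 15.5 and 16.8 TPM for Ero1l. P4hb, the classical protein disulfide isomerase, read 659, 853 and 885 CPM in knockout and 788, 1134 and 1207 CPM in control islets. Its groups overlapped through control replicate 1 (log2 fold change -0.38, SE 0.22, adjusted p = 0.29, edgeR). Pdia3, which works on glycoproteins, read 736, 508 and 774 CPM in knockout and 860.2, 1056 and 1068 CPM in control islets. The groups did not overlap, yet the log2 fold change of -0.56 was not called (adjusted p = 0.124, edgeR). Pdia4 (-0.48) and Pdia6 (-0.43) were not called either, and Dnajc10, a reductase that unpicks wrong bonds, stood at -0.02 (SE 0.17).

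Of the 11 chaperones and cochaperones 0 were called in either direction by edgeR, with a median log2 fold change of -0.48 and 3 with an unadjusted p below 0.05. DESeq2 called 2 of them and limma-voom 1. Hspa5 (BiP), the Hsp70 chaperone of the ER and the regulator of all its stress sensors, read 1681, 1608 and 1438 CPM in knockout islets, against 2735, 1151 and 2393 CPM in control islets. Control replicate 2 was the lowest of all 6 libraries and the other controls were the highest. The log2 fold change was -0.41 (SE 0.31, adjusted p = 0.425, edgeR), and it was -0.71 without control replicate 2, -0.17 without control replicate 1 and -0.14 with the acinar covariate. Hsp90b1 (Grp94), the Hsp90 of the ER, read 1747, 1079 and 1513 CPM in knockout and 1447, 1604 and 1860.5 CPM in control islets. The groups overlapped widely (-0.18, SE 0.22, adjusted p = 0.646, edgeR).

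Among the partners of Hspa5, Dnajc3 and Dnajb9 were without overlap between groups in CPM. In TPM both overlapped, at 29.6 to 62.5 in knockout and 53.7 to 83.5 in control islets for Dnajc3. Dnajb9 ran from 51.5 to 101 TPM in knockout and 64.4 to 143 TPM in control islets. Dnajc3 (p58IPK), which brings unfolded clients to Hspa5, read 208, 185 and 248 CPM in knockout and 287, 359.5 and 445 CPM in control islets. All knockout libraries lay below all controls, and the log2 fold change of -0.77 (SE 0.20) missed the threshold narrowly (adjusted p = 0.0506, edgeR), passing it without control replicate 1 (adjusted p = 0.0465) but not without any of the other 5 libraries (0.0829 to 0.146) or with the acinar covariate (0.157). Dnajb9 (ERdj4), which hands clients to ERAD and restrains Ire1, read 176, 138 and 171 CPM in knockout and 273, 186 and 323 CPM in control islets. Control replicate 2 lay closest to the knockouts (-0.69, SE 0.22, adjusted p = 0.0866, edgeR). The adjusted p was 0.0463 without control replicate 2, 0.126 to 0.234 without each of the other 5 libraries and 0.322 with the acinar covariate. Hyou1, which recharges Hspa5 with ATP, stood at -0.70 (adjusted p = 0.145, edgeR) with overlapping groups.

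Canx, a membrane lectin that holds glycoproteins while they fold, was the last of the 3 chaperones without overlap (-0.48, adjusted p = 0.206, edgeR). Its soluble relative Calr stood at -0.44, and the secreted or luminal factors Creld2, Sdf2l1 and Manf at -0.67, -0.53 and -0.20. Dnajb11, a further Hspa5 cochaperone, stood at -0.39. Control replicate 3 had the highest control value in 10 of the 11 genes of this class and in 6 of the 7 disulfide enzymes, where 31.6% of all tested genes had theirs there. Without control replicate 3 the class medians were -0.31 and -0.27, against -0.48 and -0.45 with all libraries. Without control replicate 1 they were -0.62 and -0.65.

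**Figure D3:**
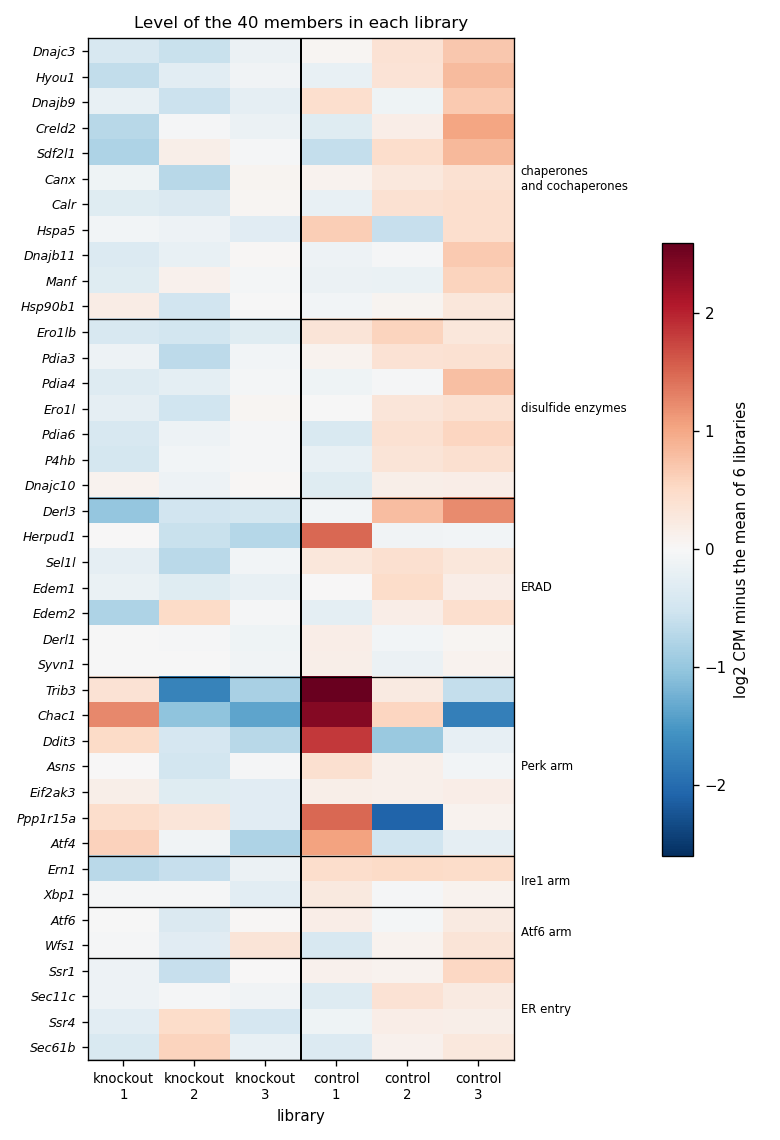
Log2 CPM minus the mean of 6 libraries (colour) for the 40 genes (rows, by class) in the knockout libraries (left) and the control libraries (right). Control replicate 3 is the highest control library for 10 of the 11 chaperones and cochaperones, and replicate 1 is the highest of both groups for 6 of the 7 Perk arm genes.

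Many of these genes carry the ER stress response element (ERSE), the sequence that Atf6 together with the factor NF-Y is known to bind. It was sought as the letters CCAAT, any 9 bases and CCACG on both strands of RefSeq promoter windows (GRCm38.p6, from 250 bases before to 50 after the start site), which were at hand for 35 of the 40 genes. The element stood in 10 of the 35 (28.6%), against 37 of 27025 genes in all (0.137%): Calr, Canx, Creld2, Derl3, Dnajc3, Ero1lb, Hsp90b1, Hspa5, Pdia6 and Syvn1. Hsp90b1 held it in 2 places. The related element ERSE-II, ATTGG, any base and CCACG, stood in Dnajb11 and Herpud1, against 0.0444% of all genes. The letters TGACGTG, the core of the element that Xbp1 binds, stood in 1 of the 35, Hspa5, and in 2.22% of all genes. The letters TGATGNAAT, of the element that Atf4 binds with C/EBP factors, stood in 0 of the 35 and in 1.08% of all genes. Overlap between motifs was allowed, and a match is a description of the letters only.

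The windows below show the element in the called genes Ero1lb and Derl3, in Dnajc3 and Herpud1, which were called with the replicate block, in Hspa5, and in Syvn1, which has the element and stood near 0. They read 5′ to 3′ on the gene's strand, and capitals mark the fixed letters of the element, which in Ero1lb and Derl3 runs in reverse.
Ero1lb, chr13:12565670-12565712, plus strand: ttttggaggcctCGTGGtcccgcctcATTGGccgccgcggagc
Derl3, chr10:75893230-75893272, plus strand: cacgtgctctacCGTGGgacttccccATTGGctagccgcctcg
Dnajc3, chr14:118937815-118937857, plus strand: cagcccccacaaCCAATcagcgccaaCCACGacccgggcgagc
Hspa5, chr2:34772013-34772055, plus strand: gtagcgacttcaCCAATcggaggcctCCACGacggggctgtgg
Syvn1, chr19:6046520-6046562, plus strand: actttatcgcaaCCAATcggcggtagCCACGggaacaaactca
Herpud1, chr8:94386365-94386399, plus strand: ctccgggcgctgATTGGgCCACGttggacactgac

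**Figure D4:**
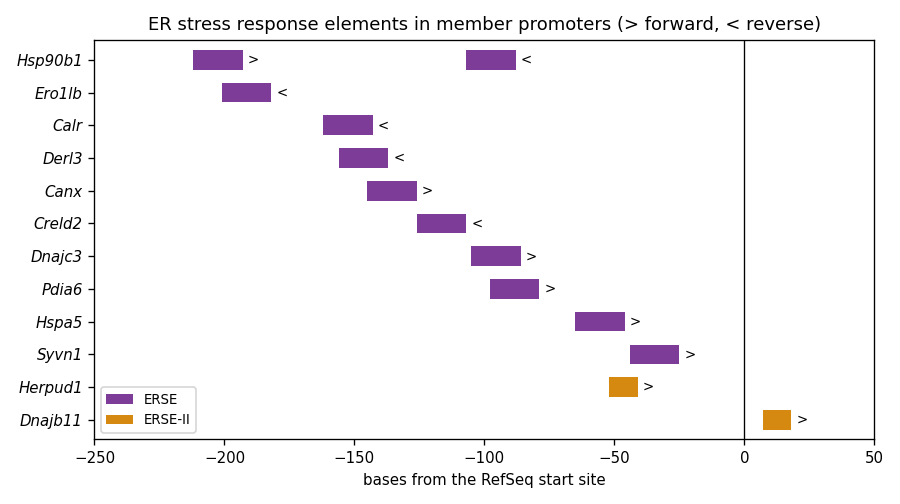
Position of each ERSE (purple) and ERSE-II (orange) in the promoter windows of 12 genes, in bases from the RefSeq start site (horizontal axis), with > for forward and < for reverse. The ERSE copies begin between 212 and 44 bases before the start site, and the ERSE-II of Dnajb11 lies 7 bases after it.

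The genes with either element did not stand apart from the others in their change. Their median log2 fold change was -0.46 over 12 genes, from -1.39 for Derl3 to -0.08 for Syvn1, and 2 of them were called. The other 23 genes with a window had a median of -0.45, with 1 called.

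Of the 7 ERAD genes 1 was lower. Derl3, an inducible derlin through which misfolded proteins leave the ER, is at chr10:75893413-75895941 (plus strand). It read 4.09, 5.86 and 6.02 CPM in knockout islets, against 7.89, 14.5 and 19.5 CPM in control islets. The groups did not overlap, and the controls differed among themselves by more than the knockouts did. The log2 fold change was -1.39 (SE 0.34, adjusted p = 0.041, edgeR) and its call depended on the libraries kept. It was called without control replicate 1 (adjusted p = 0.0149), and lost without knockout replicates 1, 2 and 3 (adjusted p = 0.101, 0.0888 and 0.102) and without control replicates 2 and 3 (adjusted p = 0.106 and 0.123). Exons of Ddit3, Dnajb9, Eif2ak3, Hsp90b1, Manf, Pdia3, Pdia4, Pdia6, Ppp1r15a and Syvn1 overlap those of other genes, so reads there may be shared. The overlaps on the same strand are in Ddit3, Hsp90b1, Manf and Pdia4. In Ddit3 that overlap, of 105 bases, is with a further annotated entry also named Ddit3, at 0.0277 CPM. The longest, of 485 bases in Eif2ak3, is with a gene on the opposite strand at 0 CPM. The broadly expressed relative of Derl3, Derl1, read 126, 125 and 118 CPM in knockout and 143, 121 and 132 CPM in control islets, which overlapped (-0.10, SE 0.13, adjusted p = 0.654, edgeR).

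Sel1l, the scaffold of the ubiquitin ligase, read 102, 73.3 and 115 CPM in knockout and 147, 159.7 and 147 CPM in control islets. The groups did not overlap, and the log2 fold change of -0.65 (SE 0.18) was not called (adjusted p = 0.0612, edgeR; adjusted p = 0.0114 in DESeq2). Syvn1 (Hrd1), the ligase itself, read 62.9, 63.3 and 59.6 CPM in knockout and 71.1, 57.5 and 68.0 CPM in control islets (-0.08, SE 0.13, adjusted p = 0.721, edgeR), overlapping throughout. Edem1, a lectin that picks out misfolded glycoproteins, was without overlap at -0.46 (adjusted p = 0.0927, edgeR), and Edem2 stood at -0.17. Herpud1, an adaptor of the ligase that both Atf6 and Atf4 induce, read 208, 138 and 125 CPM in knockout and 585, 195 and 196 CPM in control islets. Replicate 1 was the highest of each group. The log2 fold change of -1.05 (SE 0.44, adjusted p = 0.168, edgeR) was -0.32 without control replicate 1 (adjusted p = 0.458).

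In the Perk arm 0 of 7 genes were called, whether by edgeR, limma-voom or DESeq2, and an unadjusted p below 0.05 was found for 0. All 7 overlapped between groups. Eif2ak3 (Perk), the kinase at the top, read 61.3, 44.0 and 44.8 CPM in knockout and 60.7, 60.0 and 61.6 CPM in control islets. Knockout replicate 1 lay among the controls and the other knockouts below them (log2 fold change -0.28, SE 0.16, adjusted p = 0.288, edgeR). Atf4, the transcription factor of this arm, read 328, 205 and 125 CPM in knockout and 451, 152 and 184 CPM in control islets. Ddit3 (Chop), the factor it induces, read 33.6, 17.6 and 14.5 CPM in knockout and 85.8, 12.3 and 20.7 CPM in control islets. Both were highest in replicate 1 of each group, with wide overlap, at log2 fold changes of -0.26 (SE 0.47, adjusted p = 0.761) and -0.85 (SE 0.67, adjusted p = 0.449, edgeR).

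The targets of Atf4 and Ddit3 followed the same libraries. Chac1, which degrades glutathione, read 14.0, 2.77 and 2.22 CPM in knockout and 31.1, 8.61 and 1.64 CPM in control islets. Trib3, a pseudokinase that restrains Akt and Atf4, read 2.21, 0.441 and 0.903 CPM in knockout and 10.4, 1.98 and 1.07 CPM in control islets, from 7 to 249 reads per library. Ppp1r15a (Gadd34), which restores translation, read 161, 144 and 94.6 CPM in knockout and 330.2, 27.6 and 125 CPM in control islets. In all of them replicate 1 was the highest library of its group. Control replicate 1 was the highest control in 6 of the 7 Perk arm genes, against 36.1% of all tested genes, and knockout replicate 1 the highest knockout in all 7, against 31.1%. Atf3, an early stress-induced factor outside the 40 genes, read 431, 38.8 and 26.5 CPM in knockout and 530, 0.215 and 27.8 CPM in control islets. Other stress-induced genes outside the 40 did not follow replicate 1 in the knockouts. Fos read 275, 1595 and 972 CPM in knockout and 1706, 18.0 and 1298 CPM in control islets. Hspa1a read 46.9, 226 and 125 CPM against 119, 16.5 and 607 CPM, and Hspa1b 33.6, 268 and 147 CPM against 72.8, 25.9 and 627 CPM.

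The size and sign of this arm's median depended on the replicate 1 libraries. The median log2 fold change was -0.33 with all libraries, 0.31 without control replicate 1 and -0.67 without knockout replicate 1. Without control replicate 1, Atf4 stood at 0.38 (adjusted p = 0.573), Ddit3 at 0.40 (0.575), Chac1 at 0.31 (0.865) and Ppp1r15a at 0.80 (0.424), in edgeR. Trib3 at -0.34 (0.79), Eif2ak3 at -0.28 and Asns at -0.19 stayed below 0 in that fit. Asns, the asparagine synthetase that Atf4 induces, was the steadiest target at 70.6, 50.9 and 69.0 CPM in knockout and 94.5, 77.6 and 67.3 CPM in control islets. Its groups overlapped (-0.33, SE 0.18, adjusted p = 0.286, edgeR).

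Neither gene of the Atf6 arm was called by edgeR, limma-voom or DESeq2, and an unadjusted p below 0.05 was found for neither. Atf6, the sensor that becomes a transcription factor, read 141, 109.8 and 145 CPM in knockout and 160.1, 137 and 168 CPM in control islets (-0.23, SE 0.16, adjusted p = 0.387, edgeR). Wfs1, an ER membrane protein known to restrain Atf6 in beta cells and mutated in Wolfram syndrome, read 104, 86.3 and 132 CPM in knockout and 78.5, 112 and 133 CPM in control islets. Both genes overlapped between groups, and Wfs1 had the same mean in both, 108 ± 23.3 CPM in knockout and 108 ± 27.2 CPM in control islets (SD, n = 3 each). Among the 3 sensors, Ern1 was called and Eif2ak3 and Atf6 were not, and whether their changes differ was not tested.

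Among the 4 genes of ER entry 0 were called by edgeR, limma-voom or DESeq2, and an unadjusted p below 0.05 was found for 1. That was Ssr1, the alpha subunit of the translocon-associated protein complex that helps proinsulin enter, which did not overlap between groups (-0.48, SE 0.21, adjusted p = 0.181, edgeR). Its partner Ssr4 stood at -0.09. Sec61b, a subunit of the channel, read 107, 212 and 123 CPM in knockout and 109.6, 152 and 169.5 CPM in control islets. Knockout replicate 2 was the highest of all 6 libraries, and the log2 fold change was 0.03 with it and -0.32 without it. Sec11c, the catalytic subunit of the signal peptidase, stood at -0.20 (SE 0.19).

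On the scale of TPM, which is not corrected for the share of a few abundant genes, the class sums did not separate the groups. The chaperones and cochaperones summed to 3449, 2203 and 3619 TPM in knockout and 3128, 2302 and 4084 TPM in control islets. The disulfide enzymes summed to 1597, 981 and 1804 TPM in knockout and 1526, 1663 and 1948 TPM in control islets. On the scale of scaled CPM the disulfide enzymes did separate them, at 3322, 3287 and 3822 CPM in knockout and 4487, 5731 and 5505 CPM in control islets, and so did the chaperones, at 5581, 4823 and 5643 CPM against 6818, 6065 and 8436 CPM. ERAD (625, 592 and 578 against 1110, 759 and 772 CPM) and the Ire1 arm (269, 275 and 276 against 407, 368 and 383 CPM) separated them too. So did the sum of all 40 genes, at 11299, 10406 and 11558 CPM against 14765, 14283 and 16718 CPM. The Perk arm, the Atf6 arm and ER entry overlapped. The Perk arm sums were highest in replicate 1 of both groups on either scale, at 516, 211 and 243 TPM in knockout and 623, 154 and 241 TPM in control islets. Insulin mRNA (Ins1 plus Ins2) made up 6.51 to 9.66% of reads in knockout and 13.6 to 21.9% in control libraries.

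Insulin reads per Hspa5 read set the main cargo against the main chaperone inside each library. There were 35.1, 64.7 and 59.4 in knockout and 52.3, 207 and 68.8 in control islets. In reads the groups overlapped, with control replicate 2 far above the rest. The mean log2 ratio differed by -0.82, knockout minus control (exact two-sided permutation p = 0.4; the smallest p that 3 against 3 allows is 0.1). The difference was -0.23 without control replicate 2, -0.55 without knockout replicate 1 and -1.22 without control replicate 1. In TPM the ratios were 206, 291 and 294 in knockout and 306, 1182 and 349 in control islets. On that scale the groups did not overlap, and the log2 difference was -0.95 (exact two-sided permutation p = 0.1).

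Among other genes of the pathway, in a list drawn up by role, 13 of 175 tested were lower (7.43%) and 1 higher (0.571%), with a median log2 fold change of -0.12. The share lower was near the 5.84% of all tested genes. With the replicate block 17 were lower and 6 higher. Of 16 other genes of the Ire1 and Atf6 arms 3 were lower, all of the Creb3 family of factors that, like Atf6, are cut out of the ER membrane. Creb3l1 read 11.6, 6.18 and 14.8 CPM in knockout and 32.2, 39.4 and 28.0 CPM in control islets (log2 fold change -1.60, SE 0.30, adjusted p = 0.0158, edgeR). Creb3l2 averaged 135 ± 24.8 CPM in knockout and 218 ± 13.2 CPM in control islets (SD, n = 3 each; -0.68, SE 0.17, adjusted p = 0.0387, edgeR). Creb3l3 had 3, 1 and 3 reads in knockout and 47, 26 and 19 reads in control libraries (adjusted p = 0.00702, edgeR), and no fold is given for so few reads. All 3 were without overlap between groups.

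Of 45 other genes of the integrated stress response 6 were lower and 0 higher, and with the replicate block 8 were lower and 2 higher. Atf5, a factor related to Atf4, averaged 18.8 ± 2.23 CPM in knockout and 78.5 ± 17.4 CPM in control islets (SD, n = 3 each; -2.06, SE 0.20, adjusted p = 0.00157, edgeR). Vldlr, a lipoprotein receptor, averaged 19.0 ± 2.62 CPM in knockout and 52.6 ± 9.49 CPM in control islets (SD, n = 3 each; -1.47, SE 0.18, adjusted p = 0.0036, edgeR). Both stayed called whichever of the 6 libraries was left out. Cbs, which makes cystathionine, read 9.79, 12.3 and 16.7 CPM in knockout and 47.8, 45.6 and 22.1 CPM in control islets (-1.57, SE 0.32, adjusted p = 0.0212, edgeR) and stayed called for 2 of the 6 libraries left out. Gars, Aldh18a1 and Mthfd2 were the others called.

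Of 44 other chaperones and folding enzymes 2 were lower and 1 higher, and with the replicate block 5 were lower and 4 higher. All knockout libraries lay above all controls in 11 of the 44, against 17.6% of all tested genes, and below them in 8, against 17.2%. Qsox1, a sulfhydryl oxidase, read 76.4, 76.4 and 84.7 CPM in knockout and 112, 148 and 119.9 CPM in control islets (-0.68, SE 0.15, adjusted p = 0.0284, edgeR). Uggt1, which tests whether glycoproteins are folded, stood at -0.62 (adjusted p = 0.0469). Fkbp14, a prolyl isomerase that acts on collagens, was higher, at 19.9 ± 0.28 CPM in knockout and 12.1 ± 2.25 CPM in control islets (SD, n = 3 each; 0.72, SE 0.18, adjusted p = 0.0432, edgeR). Of 42 other genes of ER entry and N-glycosylation 2 were lower, Spcs3, a signal peptidase subunit (-0.77, adjusted p = 0.0411), and Tram1, which assists translocation (-0.85, adjusted p = 0.0425, edgeR). Of 28 other ERAD genes edgeR, DESeq2 and limma-voom called 0, with 1 at an unadjusted p below 0.05. With 1 library left out, Fkbp14 and Uggt1 stayed called in 0 of 6 fits, and Qsox1, Spcs3 and Tram1 in 1.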

How the data were processed

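RNA was sequenced from 3 Dpy30 knockout and 3 control islet samples. Per the labels' protocols, 1000 ng of total RNA went through poly(A) selection and a directional kit. Per the submitters' processing notes, Trimmomatic, Salmon and DESeq2 were used with GRCm38 and mm10; no versions were listed. The deposited transcript tables hold the authors' estimated counts and TPM. Estimated counts were summed per GENCODE vM21 gene entry (139852 of 140948 transcripts matched), rounded and named by symbol. Where entries share a symbol, as for Ddit3, the entry with the most reads was taken under it. Log2 fold changes and adjusted p-values of the authors' deposited table are named as such. A further deposited gene table with 6 columns of scaled values per sample was not used. CPM, log2 fold changes and p-values not named as the authors' were computed here.

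Genes passed edgeR's filterByExpr (minimum count 10), were TMM scaled and tested by group with edgeR 4.0.16 in R 4.3.3 (quasi-likelihood, Benjamini-Hochberg at 0.05). DESeq2 1.42.0, limma 3.58.1, other scalings and filters, a length offset, an acinar covariate, the replicate block and leaving out each library were alternatives. The numbers 1 to 3 come from the sample labels. Deviations from group means correlated at 0.427, 0.135 and 0.196 between libraries of the same number. Between libraries of unlike numbers the correlations ran from -0.318 to 0.14. Knockout replicate 2 correlated slightly more with control replicate 3 (0.14) than with control replicate 2 (0.135). Libraries of the same number were treated as pairs in the blocked fit, and for number 2 the correlations do not bear that out. On simulated data of the same design, with 200 of about 16190 genes changed, 27.6% of 2-fold and 80% of 4-fold changes were recovered. Of the calls there, 9.5% were false at an adjusted p of 0.05. The fit of the real data called 1634 of 16430 genes, a larger share, so these rates need not hold for it. Each library was 1 mouse. The edgeR p-values set the difference between groups against the spread between these mice, moderated over all tested genes.

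The 40 genes and the wider lists were chosen with earlier results of these data known. All 40 are accounted for, and up to 3 genes with the smallest p per wider class are named with values. Atf3, Fos, Hspa1a, Hspa1b and Gm42418 were chosen after their values were seen.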

Additional observations from a re-analysis of the deposited data

How the results depend on the processing

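Of the 40 genes 3 were called, against 7 with DESeq2, 0 with library totals alone and 5 with no filter. The number was 6 with the replicate block, 1 with the acinar covariate, and 0 to 3 when 1 library was left out. Of all tested genes 9.95% were called, against 16.0% with DESeq2, 10.5% with library totals alone and 6.3% with no filter. That share was 14.8% with the replicate block, 3.72% with the acinar covariate and 4.36 to 7.88% with a library left out. Among chaperones 0 were called, against 2 with DESeq2 and with the replicate block, 1 with RLE scaling, no filter and limma-voom, and 0 to 1 with a library left out. Among disulfide enzymes 1 was called, against 2 with DESeq2, 0 with library totals and the acinar covariate, and 0 to 1 with a library left out. Among ERAD genes 1 was called, against 2 with DESeq2, no filter and the replicate block, 0 with library totals, limma-voom and the acinar covariate, and 0 to 1 with a library left out. In the Ire1 arm 1 was called, against 0 with library totals and 0 to 1 with a library left out. Of the wider list 14 were called, against 27 with DESeq2, 22 with no filter, 23 with the replicate block (17 lower and 6 higher), 5 with the acinar covariate and 3 to 9 with a library left out.

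The median log2 fold change of the 40 was -0.44, against -0.30 with library totals and -0.50 to -0.32 with a library left out. That of ERAD was -0.46, against -0.32 with library totals, -0.25 with the length offset, -0.56 with the acinar covariate and -0.49 to -0.33 with a library left out, and that of the Ire1 arm was -0.44 with library totals. In summed CPM in place of TPM, the log2 difference was -0.50 for the Ire1 arm and -0.21 for ER entry.

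Signs turned only for genes that were not called. With library totals Dnajc10 stood at 0.12, Syvn1 at 0.046, Derl1 at 0.028, Wfs1 at 0.15 and Ssr4 at 0.01. With the acinar covariate Manf stood at 0.076, Edem2 at 0.075, Ppp1r15a at 0.094 and Ssr4 at 0.19. With limma-voom Ppp1r15a stood at 0.32, Wfs1 at 0.0096 and Sec61b at -0.0032; with the replicate block they stood at 0.23, 0.010 and -0.0073. Dnajc10 stood at 0.019 with the length offset. With a library left out, values ran from -0.33 to 0.087 for Manf, -0.16 to 0.062 for Dnajc10, -0.52 to 0.11 for Edem2, -0.67 to 0.38 for Atf4, -1.31 to 0.40 for Ddit3, -2.47 to 0.31 for Chac1, -0.78 to 0.80 for Ppp1r15a, -0.19 to 0.17 for Wfs1, -0.32 to 0.22 for Sec61b and -0.42 to 0.085 for Ssr4. The cause was not tested. Over the 40 genes and all settings, 495 values kept direction and call, 17 lost the call, 13 gained it and 35 turned sign. The spliced share of Xbp1 could be given under no setting. In the simulation with 3 libraries a group, 27.6% of 2-fold changes were recovered. Smaller changes, such as those of most of these genes, were not simulated. Trib3 (7 to 249 reads per library), Chac1 (40 to 745) and Derl3 (93 to 475) rest on few reads.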
